A study of Mus musculus with 12 samples.

Results

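The 8 genes described here handle iron or bind oxygen in the frontal cortex of the mouse: the ferritin subunit genes Ftl1 and Fth1, the iron uptake genes Tfrc, Trf and Slc11a2, the iron exporter Slc40a1, the haem oxygenase gene Hmox1 and the neuroglobin gene Ngb. They were found by symbol among 18417, 18430 and 18429 gene models that Cuffdiff, the authors' differential expression program, had tested for knockdown against wild type, rescue against knockdown and rescue against wild type. Each gene had 1 tested model in each table. Ftl1 and Ngb were chosen from their falls in knockdown against wild type, and the other 6 members for their role in iron handling, with earlier results of these data known. For Ftl1 and Ngb that comparison is therefore a description that supports nothing. Rescue against knockdown and rescue against wild type each share 1 of its groups, so they are not free of the choice either.

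Polyadenylated RNA was sequenced from the frontal cortex of 12 male mice aged 14 weeks, F1 hybrids of C57Bl/6 and 129/SvlmJ, 4 to a group. The genotypes in the labels are WT, GluN1 and GluN1Cre, named below wild type, knockdown and rescue after the series title, which gives a Grin1 knockdown and a Grin1 Cre rescue; Grin1 encodes the subunit that NMDA-type glutamate receptors need. All 3 groups had tamoxifen, the ligand of inducible Cre recombinases, from 10 weeks of age for 2 weeks, as 6 mg given by gavage plus about 14 mg eaten with the chow. The design of the Grin1 allele and the promoter that drives Cre are not given in the sources used here. By the group names only the rescue group carried Cre, so effects of Cre and of restored Grin1 cannot be told apart.

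Ferritin is a hollow protein shell in which cells store iron; its heavy subunit oxidises iron and its light subunit helps to build the mineral core. Transferrin carries iron in extracellular fluid, the transferrin receptor brings it into cells, Slc11a2 moves it across membranes, and ferroportin, the product of Slc40a1, lets it out. When iron is scarce, iron regulatory proteins bind a hairpin in some of these messages, the iron-responsive element. Bound at the 5′ end of a ferritin message it blocks translation, and bound at the 3′ end of the transferrin receptor message it slows decay. Neuroglobin is a haem protein of neurons that binds oxygen.

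The hairpins are shown because the ferritin, receptor and exporter messages carry a fully paired match and the other members gave none. Coding transcripts of GENCODE M21 (GRCm38, the build of the files) were searched on the transcribed strand for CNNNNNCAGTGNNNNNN with all 5 stem bases on each side paired, G-T pairs allowed. The capitals mark the loop of 6 bases, and each sequence is written 5′ to 3′ with T for U.
Ftl1, 5′ UTR: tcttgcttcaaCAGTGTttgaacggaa
Fth1, 5′ UTR: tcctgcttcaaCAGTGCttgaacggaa
Slc40a1, 5′ UTR: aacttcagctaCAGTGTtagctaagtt
Tfrc, 3′ UTR, element 1: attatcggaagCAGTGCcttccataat
Tfrc, 3′ UTR, element 2: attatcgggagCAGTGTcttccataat
Tfrc, 3′ UTR, element 3: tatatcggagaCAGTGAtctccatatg
Tfrc, 3′ UTR, element 4: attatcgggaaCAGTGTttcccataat
The Ftl1 element lies in exon 1 at chr7:45459780-45459806 on the minus strand. The Fth1 element lies in exon 2 of the longest Fth1 transcript that holds a match, at chr19:9982733-9982759 on the plus strand. The Slc40a1 element lies in exon 1 at chr1:45925466-45925492 on the minus strand. The 4 Tfrc elements lie in exon 19 on the plus strand, at chr16:32631220-32631246, chr16:32631599-32631625, chr16:32631664-32631690 and chr16:32631711-32631737. A match was found in the 5′ UTR of 31 of 20597 genes (0.151%) and in the 3′ UTR of 129 of 20995 genes (0.614%). No match with all 5 stem bases paired was found in the UTRs of Ngb, Trf, Slc11a2 and Hmox1. Matches with an incomplete stem were not counted for any gene, Tfrc included, so the search is not a full list of iron-responsive elements. A match is a description of the sequence, and the RNA levels below carry no measure of translation or of protein.

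The levels are FPKM (fragment counts divided by transcript length and by library size), of which the authors' tables hold 1 per group and none per animal. No spread between animals, depth or left-out animal could therefore be given. The p and q are those of the authors' Cuffdiff test, and a model is called changed at p under 0.05 and q under 0.10, the threshold in the series' design text. The smallest Cuffdiff p was 5e-05 in each comparison. Its q of 0.00456, 0.0118 and 0.0098, in the order of comparisons above, is a floor that all models at this p share. The log2 folds were recomputed from the FPKM values, and their 95% intervals were computed from the deposited test statistic, taken as a normal deviate. That statistic was a median of 0.497, 0.497 and 0.498 of the normal deviate of p, in the order of comparisons above. It was thus not on the scale of the p behind the calls. Whether it is a normal deviate was not checked, so the true coverage of the intervals is not known. For the members the statistic gives a wider error than the deposited p, with the exception of Ftl1 in knockdown against wild type. There p was at its smallest value, and the error was 0.175 from the statistic and 0.187 from p. The tables were assembled and normalised separately, and wherever a group stands in 2 tables its FPKM differed by at most 2.63% for all members but Slc11a2, for which it differed by up to 8.98%. Grin1 itself was at 138 FPKM in wild type and 56.7 in knockdown, at 65.7 in knockdown and 86.7 in rescue, and at 138 in wild type and 78.0 in rescue, so the order of the groups followed the labels. Cortical neuron markers were abundant, with the 9 tested models summing to 2888 FPKM in wild type and 2620 in knockdown.

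Of the 8 members, 3 fell in knockdown against wild type (Ftl1, Ngb and Tfrc) and 0 rose. Over all tested models 2.52% were called in that comparison and 0.858% were called lower; Ftl1 and Ngb were chosen in it, so nothing is read from the count. In rescue against knockdown 0 of 8 members were called, against 0.689% of all tested models (0.559% lower); 2 members, Ftl1 and Trf, had a p under 0.05 there, among 773 models of the whole table. In rescue against wild type Ftl1 and Tfrc fell and 0 members rose, against 0.841% of all tested models called (0.478% lower). The median log2 fold of the members was -0.08, -0.02 and -0.09 in the 3 comparisons, and that of all models whose FPKM averaged 1 or more was -0.01, -0.00 and -0.01. For knockdown, the authors' deposited table placed Ngb just inside the threshold with q = 0.0900, and Trf just outside it with q = 0.104.

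**Figure D1:**
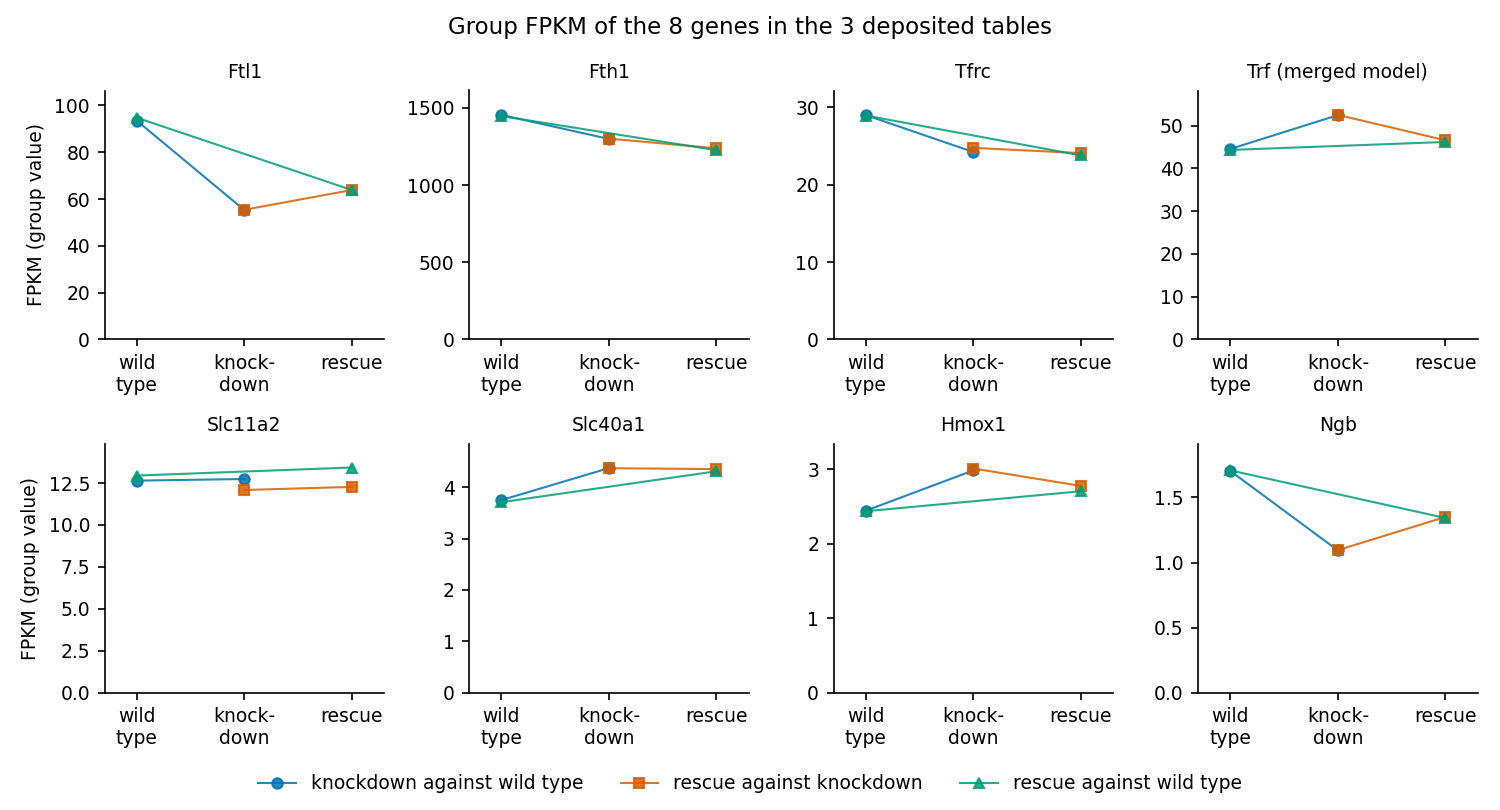
Group FPKM of the 8 genes on linear axes from 0, with the groups along the horizontal axis and 1 line for each table; each point is the authors' value for 1 group and carries no spread. Ftl1 goes from 93.5 in wild type to 55.3 in knockdown and 63.8 in rescue, while Slc11a2 stays between 12.1 and 13.4.

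By level, compared per length in FPKM, Fth1 was the most abundant member and was followed by Ftl1, Trf, Tfrc, Slc11a2, Slc40a1, Hmox1 and Ngb. This order was the same in each of the 3 groups. In wild type, by the table that sets knockdown against it, levels ran from 1455 FPKM for Fth1 to 1.70 for Ngb. With no value per animal, it could not be said which neighbours in that order differ beyond their spread. The place of Ftl1 also depends on how reads shared with its copies were divided. The Trf level belongs to a model joined with a neighbouring gene. Both limits are described below.

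Ftl1 encodes the light subunit of ferritin (chromosome 7, 45457944 to 45459884, minus strand). Its FPKM was 93.5 in wild type and 55.3 in knockdown, 55.4 in knockdown and 63.9 in rescue, and 94.8 in wild type and 63.8 in rescue, taking the 3 tables in turn. Knockdown was the lowest group, rescue lay between, and wild type was the highest. The knockdown value was 59.1% of wild type, a log2 fold of -0.76 (95% interval -1.10 to -0.41). The authors' deposited table gave that fall q = 0.00456, the floor of that comparison. The rescue value was 67.4% of wild type, a log2 fold of -0.57 (-0.91 to -0.22), and the authors' deposited table gave q = 0.0098. With p computed from the deposited statistic, the fall in knockdown kept its call (an adjusted p of 0.0111) and that in rescue lost it (an adjusted p of 0.892). Between knockdown and rescue the log2 fold was 0.20 (-0.14 to 0.55), and the authors' deposited table gave p = 0.0168 and q = 0.760, which missed the threshold.

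Fth1 encodes the heavy subunit (chromosome 19, 9980598 to 9985098, plus strand). It was at 1455 FPKM in wild type and 1299 in knockdown, 1301 in knockdown and 1238 in rescue, and 1447 in wild type and 1226 in rescue. The log2 fold was -0.16 (-0.47 to 0.14) in knockdown against wild type, -0.07 (-0.38 to 0.24) in rescue against knockdown and -0.24 (-0.53 to 0.05) in rescue against wild type. None was called: the authors' deposited table gave q = 0.539 for the first and q = 0.150 for the last. The ratio of Fth1 to Ftl1 in FPKM was 15.6 in wild type, 23.5 in knockdown and 19.2 in rescue. The difference between the folds of the subunits was not tested, and reads shared with the copies described below were not separated. Ftmt, the mitochondrial ferritin gene, was listed at or near 0 in every group and was not tested by Cuffdiff.

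**Figure D2:**
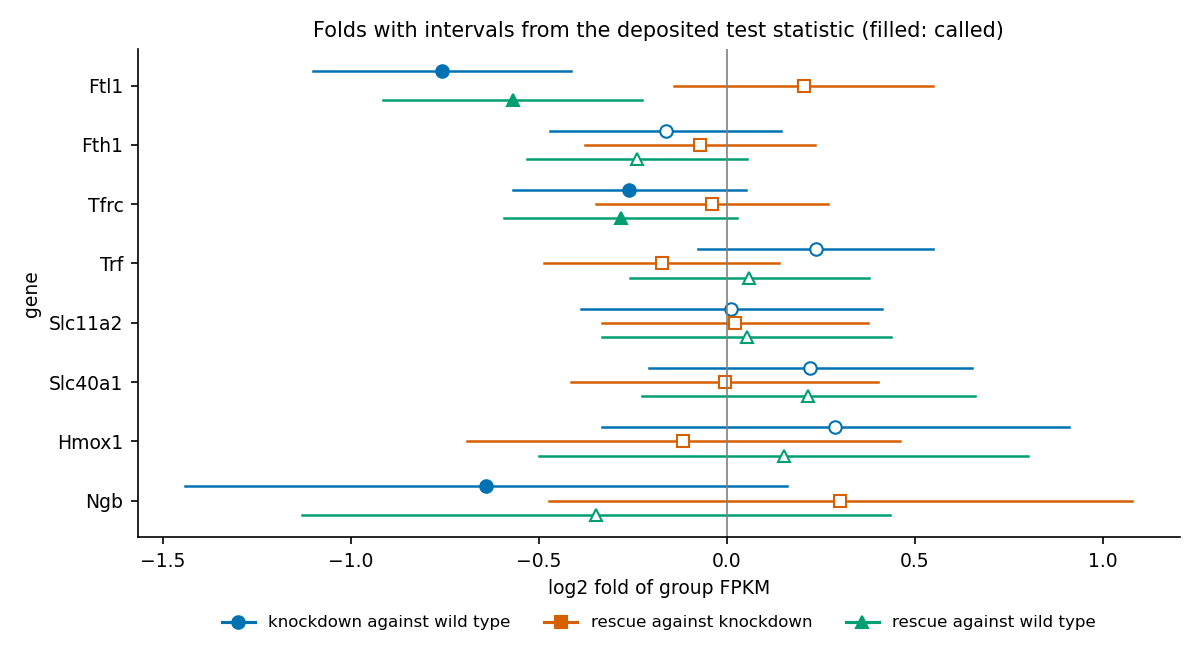
Log2 folds of group FPKM for the 8 genes in the 3 comparisons, second-named group as the reference; lines are 95% intervals from the deposited test statistic and filled symbols are called models. The Ftl1 intervals against wild type run from -1.10 to -0.41 and from -0.91 to -0.22, and every other interval crosses 0, those of the called Ngb and Tfrc models included.

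Ftl1 has many near copies, so its reads cannot all be placed. By BLAST of its 968-base transcript against all GENCODE M21 transcripts, 24 other genes aligned over at least 300 bases, of which 7 were at least 90% and 5 at least 95% identical. The nearest was Ftl1-ps1 on chromosome 13, annotated as coding, with 99.56% identity over 910 bases. Of all stretches of 50 bases in the Ftl1 transcript, 90.6% also occurred in a transcript of another annotated gene, and of all stretches of 100 bases 78.6%. Genes annotated over the same locus were not left out of these shares, among them Gm22133, which lies inside Ftl1. For Fth1 these shares were 6.59% and 0.964%. For Tfrc, Ngb, Slc40a1 and Hmox1 both were 0. For Slc11a2 they were 2.02% and 0. For Trf they were 79.8% and 77.3%, all with the gene Gm20425, and whether that gene overlaps the Trf locus was not checked.

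An unnamed model lay within Ftl1-ps1 (chromosome 13, 74406328 to 74407324) in the table for knockdown, and mostly within it in the other tables. It was at 33.5 FPKM in wild type and 20.2 in knockdown, 17.9 in knockdown and 20.2 in rescue, and 27.3 in wild type and 18.5 in rescue. Its level was not stable across comparisons: wild type was at 33.5 and 27.3, and the model spanned 997, 1099 and 1170 bases. The rescue value of 18.5 from the last lay below the knockdown value of 20.2 from the first. Within each comparison the values stood in the order seen for Ftl1, with log2 folds of -0.73, 0.17 and -0.56. The authors' deposited table called the first and the last of them, with q = 0.00456 and q = 0.0098. Both are the floors of their comparisons, so their match to the q of Ftl1 is no measure of likeness. How Cuffdiff divided reads between the copies is not given in the sources used here, so the models are not separate measurements. Summed with that model, Ftl1 had log2 folds of -0.75 in knockdown and -0.57 in rescue against wild type. The other Ftl1 copies of at least 95% identity had no tested model of their own. For Fth1, an unnamed model of 158 bases lay within its copy Gm6977 on chromosome X (90.5% identity over 524 bases). It was at 1534.5 FPKM in wild type and 1446 in knockdown, 1442 in knockdown and 1422 in rescue, and 1524 in wild type and 1413 in rescue. Each value was above that of Fth1, and no comparison was called. How reads were divided between this short model and Fth1 is not given either, so its level is not read as expression of the copy.

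**Figure D3:**
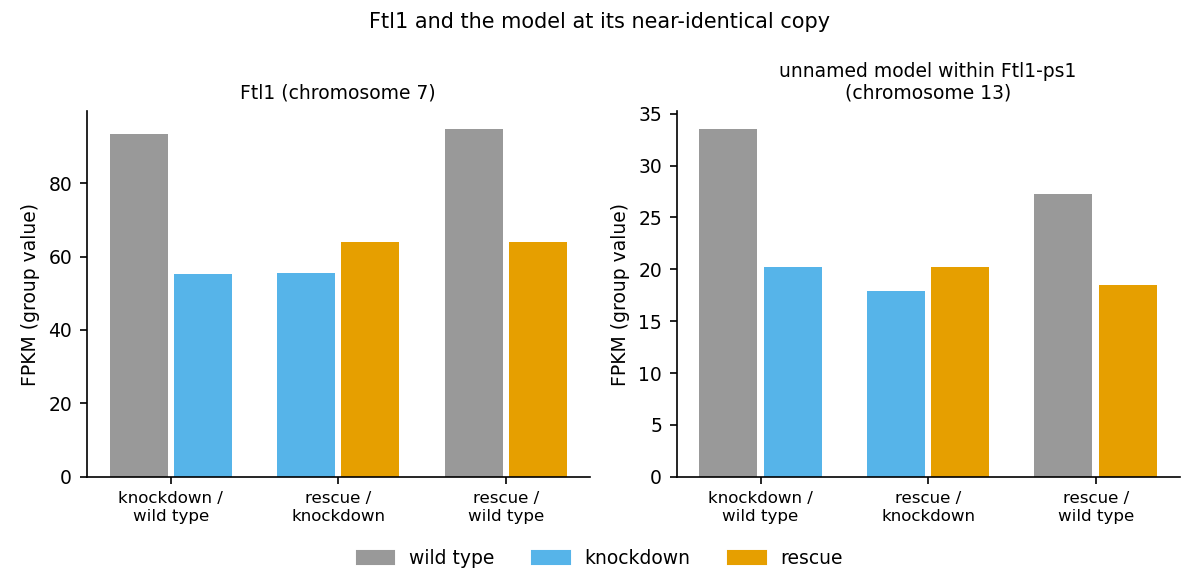
Group FPKM of Ftl1 and of the unnamed model within its near-identical copy Ftl1-ps1, a pair of bars for each table, bars from 0 and without spread. In both panels the wild-type bar is the highest of its table and the knockdown bar the lowest.

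Tfrc encodes the transferrin receptor (chromosome 16, 32608920 to 32632794, plus strand). It was at 29.0 FPKM in wild type and 24.2 in knockdown, 24.8 in knockdown and 24.1 in rescue, and 28.9 in wild type and 23.8 in rescue. Knockdown and rescue both lay below wild type and close to each other. The log2 fold against wild type was -0.26 (-0.57 to 0.05) in knockdown and -0.28 (-0.59 to 0.03) in rescue, both called. The authors' deposited table gave q = 0.0576 and q = 0.0453. The knockdown call was lost at q under 0.05, and both were lost with p from the deposited statistic (an adjusted p of 1 for each). Between knockdown and rescue it was -0.04 (-0.35 to 0.27).

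Trf encodes transferrin, the iron carrier, which oligodendrocytes and choroid plexus make in the brain (chromosome 9, 103204001 to 103230444, minus strand). The tables join it in 1 model with the neighbouring gene 1300017J02Rik, so its values belong to both. That model was at 44.5 FPKM in wild type and 52.4 in knockdown, 52.5 in knockdown and 46.6 in rescue, and 44.3 in wild type and 46.2 in rescue. Knockdown was the highest group in both of its tables. The log2 folds were 0.24 (-0.08 to 0.55), -0.17 (-0.49 to 0.14) and 0.06 (-0.26 to 0.38), none of them called. The authors' deposited table gave p = 0.00265 and q = 0.104 for the first, and p = 0.0297 and q = 0.958 for the second.

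The oligodendrocyte markers stood at a summed 1207 FPKM in wild type and 1220 in knockdown, 1226 in knockdown and 1139 in rescue. Of 14 tested models of that list 1 fell in knockdown, Opalin, from 6.57 to 4.73 FPKM, and Cuffdiff called 0 of 13 in rescue against knockdown, 1 with an unadjusted p under 0.05. The choroid plexus markers summed to 3.69 and 5.04 FPKM in wild type and knockdown, with their defining gene Ttr, the transthyretin gene, at 0.081 and 0.125. In that list 1 of 4 tested models rose, Aqp1, which also fell in rescue against knockdown and rose in rescue against wild type. The share called among all tested models was 2.52% in knockdown against wild type, 0.689% in rescue against knockdown and 0.841% in rescue against wild type. In bulk tissue, fewer cells of a type and less RNA per cell cannot be told apart.

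Slc11a2 encodes the iron transporter of endosomes and the cell surface (chromosome 15, 100387898 to 100425072, minus strand). It was at 12.6 FPKM in wild type and 12.7 in knockdown, 12.1 in knockdown and 12.3 in rescue, and 12.9 in wild type and 13.4 in rescue. The log2 folds were 0.01 (-0.39 to 0.41), 0.02 (-0.33 to 0.38) and 0.05 (-0.33 to 0.44). The span of its locus in the tables was 69856 bases in 2 tables and 35156 in the table of rescue against knockdown.

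Slc40a1 encodes ferroportin, the iron exporter (chromosome 1, 45908068 to 45926523, minus strand). It was at 3.75 FPKM in wild type and 4.37 in knockdown, 4.37 in knockdown and 4.35 in rescue, and 3.71 in wild type and 4.31 in rescue. Both knockdown and rescue lay above wild type, by a log2 fold of 0.22 (-0.21 to 0.65) and 0.22 (-0.23 to 0.66). The authors' deposited table gave p = 0.0437 with q = 0.588 for the first and p = 0.0548 for the second, so neither was called.

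Hmox1 encodes the inducible haem oxygenase, which frees iron from haem (chromosome 8, 75093621 to 75100589, plus strand). It was at 2.44 FPKM in wild type and 2.99 in knockdown, 3.01 in knockdown and 2.78 in rescue, and 2.44 in wild type and 2.71 in rescue. Knockdown was the highest group. The log2 folds were 0.29 (-0.33 to 0.91), -0.12 (-0.69 to 0.46) and 0.15 (-0.50 to 0.80), and none was called.

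Ngb encodes neuroglobin (chromosome 12, 87097531 to 87102539, minus strand). It was at 1.70 FPKM in wild type and 1.09 in knockdown, 1.09 in knockdown and 1.35 in rescue, and 1.71 in wild type and 1.34 in rescue. Knockdown was the lowest group and rescue lay between the others, at levels near 1 FPKM throughout. The knockdown value was 64.2% of wild type, a log2 fold of -0.64 (-1.44 to 0.16), and the authors' deposited table gave p = 0.0022 with q = 0.0900. That call was lost at q under 0.05 and with p from the deposited statistic (an adjusted p of 1). The log2 fold was 0.30 (-0.47 to 1.08) in rescue against knockdown and -0.35 (-1.13 to 0.43) in rescue against wild type, with p = 0.125 and p = 0.0786 in the authors' deposited table, and neither was called.

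Cygb, the gene of cytoglobin, a globin found in many tissues, fell in both comparisons with wild type. It went from 18.8 FPKM in wild type to 15.0 in knockdown, a log2 fold of -0.33, and from 18.7 to 14.5 in rescue, a log2 fold of -0.37. The authors' deposited table gave q = 0.0343 and q = 0.0098. Between knockdown and rescue its log2 fold was -0.03. Mb, the myoglobin gene, was at 0.160 FPKM in wild type and 0.168 in knockdown and was not tested. Red cell transcripts, a source of haemoglobin, summed to 123 FPKM in wild type and 138 in knockdown, where 1 of 6 tested models rose. They summed to 124 in wild type and 187 in rescue, where 3 of 6 rose. Among all tested models 2.52% were called in knockdown and 0.841% in rescue, both against wild type.

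Among 74 tested models of 83 iron and haem genes found, 7 of the members included, 2 rose and 2 fell in knockdown against wild type, beside the 2.52% of all tested models. Those that rose were Pcbp3 and Cybrd1, and those that fell were Ftl1 and Tfrc. Pcbp3, of the poly(rC)-binding family whose members Pcbp1 and Pcbp2 deliver iron to ferritin, went from 29.3 to 39.5 FPKM (log2 fold 0.43, with q = 0.00456 given by the authors' deposited table). Cybrd1, a ferric reductase, went from 0.758 to 1.13 FPKM (log2 fold 0.58, with q = 0.0197 given by the authors' deposited table). In rescue against knockdown Cuffdiff called 0 of 75 such models, at 0.689% over all models, and 7 had an unadjusted p under 0.05. The Pcbp3 and Cybrd1 models stood at log2 folds of -0.24 and -0.36 there, and a second tested Pcbp3 model of that table went from 2.73 to 2.18 FPKM (-0.33). With p from the deposited statistic, Ftl1 alone of the 4 models called in knockdown kept its call, and the wild-type level of Cybrd1 was 0.965 FPKM in the table of rescue against wild type.

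In rescue against wild type 3 of 75 such models fell and 0 rose, at 0.841% over all models: Ftl1, Tfrc and Heph. Heph encodes hephaestin, a ferroxidase that works with ferroportin. It was at 1.34 FPKM in wild type and 0.936 in rescue, a log2 fold of -0.51, with q = 0.0673 in the authors' deposited table. In knockdown it was at 1.22 FPKM, a log2 fold of -0.14 against wild type that was not called. Without the members the lists held 67, 68 and 68 tested models, of which 2, 0 and 1 were called. With p from the deposited statistic, 0 of the 3 models called in rescue against wild type kept the call.

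Ordered by role, the ferritin handling list had 1 of 7 tested models higher and 1 lower in knockdown, the iron uptake list 1 of 11 higher and 1 lower, and the export and hepcidin list 0 of 8 called by Cuffdiff, 2 of them with an unadjusted p under 0.05. The iron sensing list, with the iron regulatory protein genes Aco1 and Ireb2, had 0 of 6 called and 1 with a p under 0.05; Aco1 stood at a log2 fold of 0.04 and Ireb2 at 0.02. Of 11 models of haem synthesis, 9 of haem breakdown and transport and 22 of mitochondrial iron and iron-sulphur cluster assembly, Cuffdiff called 0 in any of the 3 comparisons. With 2.52%, 0.689% and 0.841% called among all tested models, 0 calls in these lists are not read as a lack of change. At an unadjusted p under 0.05 stood 1 haem synthesis and 1 mitochondrial model, both in rescue against wild type. The last of these lists had a median log2 fold of 0.00, -0.04 and -0.05, and 10, 16 and 20 of its 22 models were below 0, beside a median of all models of -0.01, -0.00 and -0.01. The share of all models below 0 was not counted, so nothing is read from those counts.

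**Figure D4:**
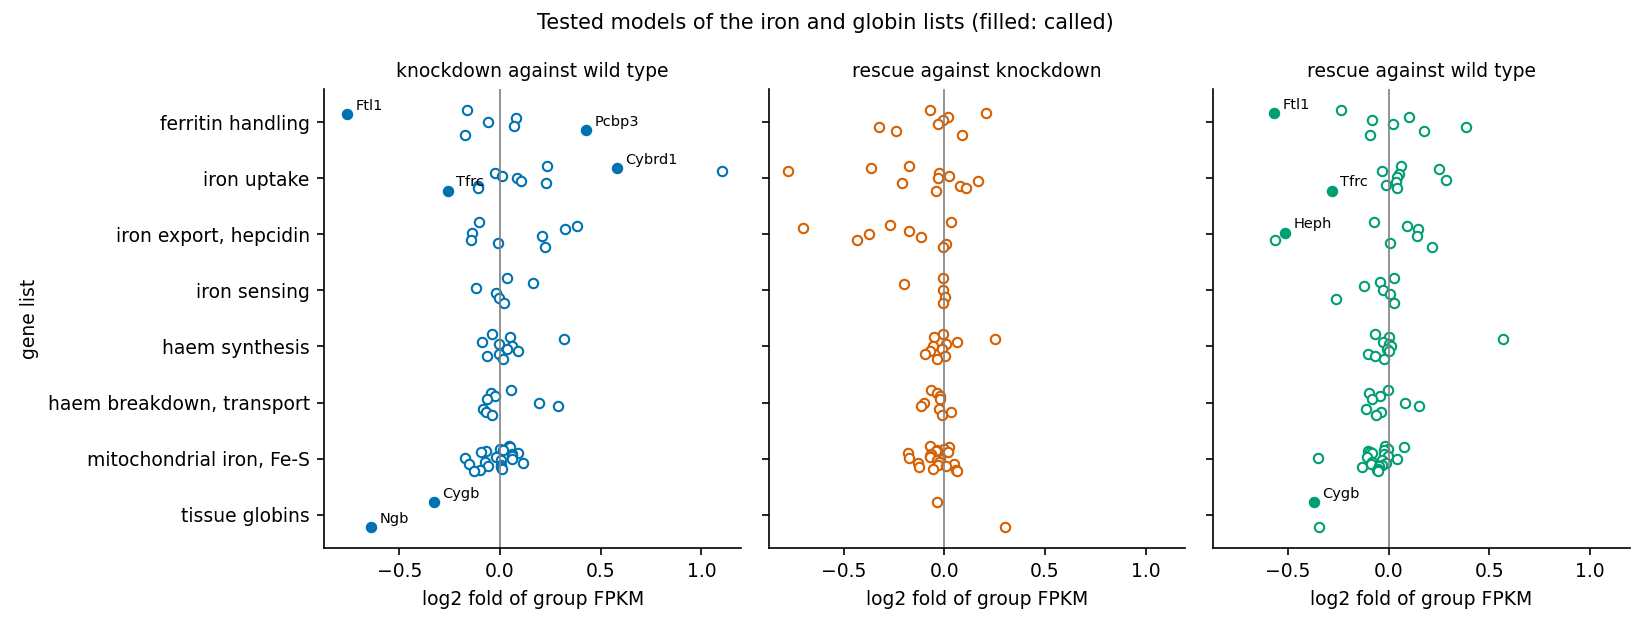
Log2 folds of group FPKM for every tested model of 7 iron and haem lists and the tissue globins, 1 panel for each comparison; filled symbols are called models and carry their symbol. Called models number 4, 0 and 3 in the iron and haem lists, and most open symbols sit near 0.

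Genes that oxidative stress, lipid peroxidation or low oxygen act through were counted from lists as well. The share called among all tested models was 2.52% in knockdown against wild type, 0.689% in rescue against knockdown and 0.841% in rescue against wild type. Of 11 tested models of Nrf2 targets, which include Hmox1, 1 rose in knockdown, the sulfiredoxin gene Srxn1, from 35.7 to 43.1 FPKM (log2 fold 0.27, with q = 0.0392 given by the authors' deposited table), and 0 were called in either rescue comparison, where 1 and 0 had an unadjusted p under 0.05. Of 6 models of ferroptosis control Cuffdiff called 0 in any comparison, and 0 had a p under 0.05. Beside those shares, 0 calls in so short a list are not read as a lack of change. Of 10 hypoxia-induced models the glycolysis gene Pgk1 rose in knockdown, from 37.5 to 55.0 FPKM (log2 fold 0.55, with q = 0.00456 given by the authors' deposited table). Its level was not stable across tables: it was at 55.3 in knockdown and 48.2 in rescue in the second table, but at 19.0 in wild type and 18.8 in rescue in the table of rescue against wild type. The glucose transporter gene Slc2a1 fell from 48.2 FPKM in knockdown to 39.5 in rescue (log2 fold -0.29, with q = 0.0831 given by the authors' deposited table).

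The genes nearest to Ftl1 and to Ngb in their 3 log2 folds were taken from 11289 models tested in all tables, by Euclidean distance. Nearest to Ftl1 were Tnnc1 (distance 0.08), Nxph2 (0.11), Rem2 (0.14), Zfp189 (0.17) and Cplx3 (0.17). Nearest to Ngb were Myl4 (0.06), Otof (0.07), Gm10635 (0.08), Gm10754 (0.12) and Usmg5 (0.12). Tnnc1, a troponin C gene, was at 24.9 FPKM in wild type, 14.6 in knockdown and 16.1 in rescue, and Myl4, a myosin light chain gene, at 16.0, 10.0 and 12.2. Rem2, Myl4 and Usmg5 were called in no comparison; for Myl4 in knockdown the authors' deposited table gave q = 0.302. The distance rests on 3 folds that share groups, so it describes likeness over these 3 groups and nothing more.

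The 2 nearest tested models on each side of Ftl1 and of Ngb were not called in any comparison. Among all tested models 2.52%, 0.689% and 0.841% were called. Next to Ftl1, the log2 folds in knockdown against wild type were -0.05 for Gys1, 0.01 for Ruvbl2, -0.01 for Bax and -0.30 for Dhdh. For Dhdh the authors' deposited table gave p = 0.0111 and q = 0.272. Next to Ngb they were -0.08 for Tmem63c, -0.32 for Zdhhc22, -0.14 for Gstz1 and 0.00 for the joint model of Pomt2 and Tmed8. For Zdhhc22 the authors' deposited table gave p = 0.0175 and q = 0.358.

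Markers of neighbouring regions and of other cells moved with the groups, and their part in the falls of Ftl1, Tfrc, Ngb and Cygb was not tested. Among all tested models 2.52% were called in knockdown against wild type, 0.689% in rescue against knockdown and 0.841% in rescue against wild type. Olfactory bulb markers summed to 55.4 FPKM in wild type and 137 in knockdown, where 8 of 9 tested models rose; 8 of 9 fell in rescue against knockdown, and 7 of 8 rose in rescue against wild type. Hypothalamus markers summed to 6.93 FPKM in wild type and 14.7 in knockdown, with a median log2 fold of 1.33 over 6 tested models, of which Trh rose and 3 had a p under 0.05. In rescue against knockdown their median was -0.86 over 5 models and Trh fell, and in rescue against wild type it was 0.22 over 4 models and Trh rose. Striatal markers summed to 153 FPKM in wild type and 129 in knockdown, where 5 of 8 fell; 7 of 8 fell in rescue against wild type and 1 of 7 in rescue against knockdown. Of the microglia, macrophage, endothelial and cortical neuron lists Cuffdiff called 0 models in any comparison. Their median log2 folds in knockdown against wild type were 0.04, 0.35, 0.18 and -0.15, with 0, 4, 3 and 3 models at an unadjusted p under 0.05. Among 7 astrocyte models Gfap and Aqp4 rose in knockdown against wild type. In rescue against knockdown all 7 had a negative log2 fold, 4 of them with a p under 0.05, and Gfap fell from 54.1 to 42.4 FPKM; in rescue against wild type Gfap rose from 34.6 to 41.9.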

How the data were processed

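The authors' deposited tables, 1 for each pair of groups, hold for every gene model an FPKM per group, its p-value, its q-value and a test statistic, which is a score, all made with Cuffdiff per the file headers. The submitters' processing notes name Cuffdiff 2.2.1.3, TopHat2 2.1.0 and Cufflinks 2.2.1.0 in no stated order, and the build mm10 (GRCm38); read depth, library strandedness and read length are not given in the sources used here. Replicates are the 4 mice of a group, whose separate values were not analysed here.

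From these tables the log2 folds were recomputed from the deposited FPKM, since some deposited log2 cells were unreadable. Calls used p under 0.05 and q under 0.10 among models with status OK. A Benjamini-Hochberg adjustment recomputed here came within 5.14e-07 of each deposited q-value. Sequences and positions came from GENCODE M21, searched with Python 3.11.15 and blastn 2.17.0. The code for the adjustment and the thresholds was run on p-values made from simulated normal errors, and the hairpin search on a planted, fully paired hairpin. These runs did not check the deposited p and q, on which the calls rest. The members and gene lists were chosen with earlier results of these data known. Genes named are the members, called models of each list, the 5 nearest patterns and 2 neighbours on each side of Ftl1 and Ngb, and copies of the ferritins. Grin1 is the targeted gene, and any other gene or marker named was chosen after its values were seen.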

Additional observations from a re-analysis of the deposited data

How the results depend on the processing

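No paired analysis was possible because the tables hold 1 value per group and none per animal, and no animal could be left out. With q under 0.05, 1 of 8 members was called in knockdown against wild type in place of 3, with Ngb and Tfrc lost. With a p computed from the deposited test statistic, 1 member and 1 model of the iron lists were called there in place of 3 and 4, and 0 of each in rescue against wild type in place of 2 and 3. Ftl1 was the model left, with an adjusted p of 0.0111 in knockdown and 0.892 in rescue against wild type. Over all tested models that statistic called 41, 15 and 18 in place of 464, 127 and 155. With only the models whose FPKM averaged 1 or more, Trf passed as higher in knockdown, with an adjusted p of 0.0981. In rescue against knockdown 0 members and 0 iron list models were called under each of these settings. Member folds were recomputed 99 times with other scaling, pseudocounts and summed models, and 0 changed sign. A pseudocount added to both groups cannot change a sign. Each member had 1 model, so the sum over its symbol returned the same fold. Nothing is therefore read from the count of signs. With 1 added to each FPKM the Ngb fold in knockdown was -0.37 in place of -0.64. The sum of Ftl1 with the Ftl1-ps1 model was chosen after seeing the data.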
